A study of Canis lupus familiaris with 10 samples.

Results

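The immediate early transcription factors *FOS*, *FOSB*, *JUN*, *JUNB*, *JUND*, *EGR1*, *EGR2*, *EGR3*, *ATF3* and *IER2* were described in a skin tumor of the dog, canine cutaneous histiocytoma (CCH). This benign tumor arises from precursors of epidermal Langerhans cells and regresses by itself. The 10 genes were taken from a list of names, without a threshold on any value, but chosen with earlier results of these data known. All of them were found among the 23266 gene symbols of the deposited table. Formalin-fixed, paraffin-embedded (FFPE) tumors of pet dogs were compared, 5 of group 1 (early CCH) and 5 of group 3 (late CCH) of a histological staging scheme. The late tumors are labeled as rich in lymphocytes, and the labels name no treatment. The dogs were 0.5 to 5 years old in the early group, where an age is given for 4 of them, and 1.5 to 9 years old in the late group. RNA was measured with QuantSeq 3′, which yields a single short fragment per transcript, taken next to its poly(A) tail. Levels therefore do not grow with transcript length. Between genes they can still differ with how well the annotation covers each 3′ end, which was not tested here. Values are normalized read counts, that is, reads assigned to a gene divided by 1 scaling factor per library. The columns of the table show the stage but not the dog, and the library numbers 1 to 5 of each stage serve as names.

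Immediate early genes are transcribed within minutes after a cell receives a signal, without prior protein synthesis, and their transcripts are short-lived. Kinase cascades that end in ERK, JNK and p38 act on transcription factors such as serum response factor (SRF) and its ETS partners, which are bound to the promoters of these genes beforehand. FOS and JUN proteins pair through leucine zippers to form AP-1, whereas EGR proteins bind GC-rich promoter elements with zinc fingers. In skin tumors, every cell type present can contribute such transcripts, including tumor cells, lymphocytes, keratinocytes and fibroblasts. In bulk tissue, a lower value can mean fewer cells of a type or less RNA per cell, and these cannot be told apart.

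The 10 libraries held 2973125 to 4439709 reads assigned to genes, with 3602520 ± 497586 in early and 3121300 ± 108485 in late CCH (SD, n = 5 each). The difference in mean depth, late minus early, was -481220 reads, smaller in size than the early SD (p = 0.0238, exact permutation test, two-sided). Without early library 4, the deepest, the difference was -271922 reads (exact permutation p = 0.0317). The exact permutation p ranged from 0.0556 to 0.0635 without late library 1, 4 or 5. RNA quality, given in the labels as the percentage of RNA fragments over a set length (DV200), was 68.5 ± 2.46 in early and 73.2 ± 2.09 in late CCH (SD, n = 5 each, exact p = 0.0238). The study's sample list also places early and late tumors in separate extraction batches and index sets, so that these and the stage cannot be told apart. Of the 10 Langerhans cell markers looked up, 7 were in the table, where the defining genes *CD207*, *CD1A2* and *CD1A9* were not found. The 7 markers summed to 2977 to 5368 in early and 1732 to 2435 in late CCH. Nothing in the labels says that samples of a stage shared an animal, and the p-values measure the spread between these 5 and 5 tumors.

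The stages were compared with limma across the 12397 genes that had a normalized read count of at least 10 in at least 5 libraries. The log2 fold change (log2FC) is the late mean minus the early mean of log2(value + 1). A gene was called if its size reached 1 and its p, adjusted by the Benjamini-Yekutieli (BY) procedure, did not exceed 0.05. Of all genes tested, 2.17% were called, with 131 being higher in late CCH and 138 being lower. Among the immediate early transcription factors, 9 of 10 passed the filter and *FOSB* did not. *EGR2* rose in late CCH and was the only one called (1 of 9). A log2FC above 0 was found for 8 of the 9 genes, with *JUND* as the exception, and their median was 0.76 beside -0.004 over all genes tested. An unadjusted p of at most 0.05 was reached by 4 of the 9 (*JUNB*, *EGR1*, *EGR2* and *IER2*), beside 30.9% of all genes tested. With Benjamini-Hochberg (BH) adjustment in place of BY, the fold limit kept, *EGR1* and *EGR2* were called, beside 9.04% of all genes tested. Early and late values did not overlap for 1 of the 9, beside 12% of all genes tested.

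**Figure D1:**
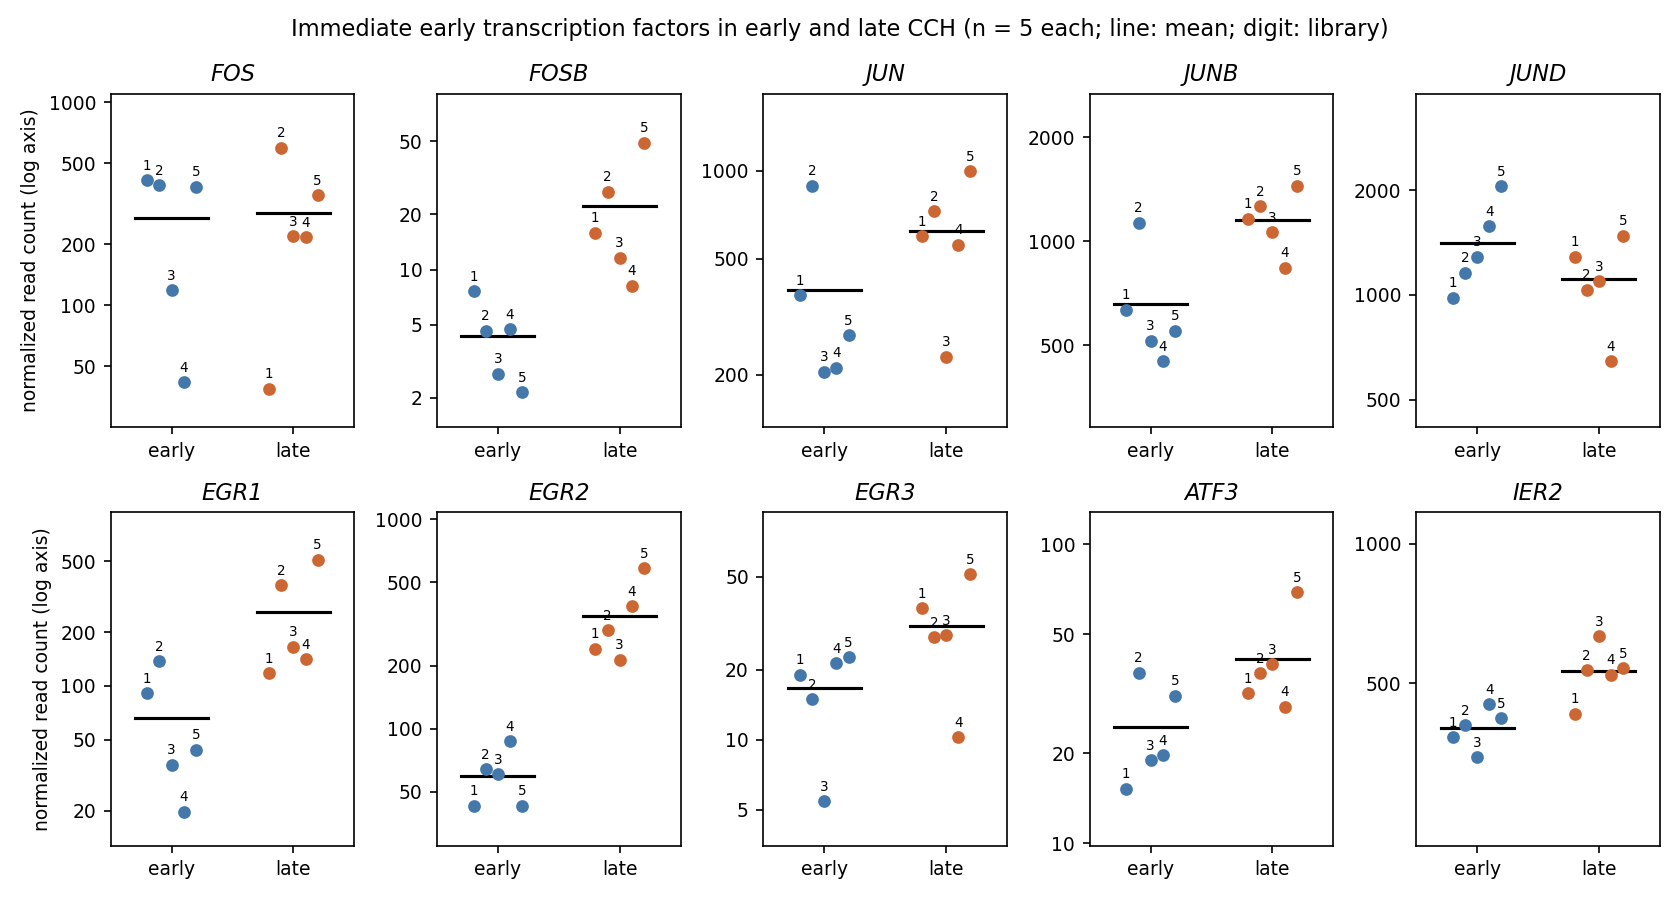
Normalized read count (log axis) of the 10 immediate early transcription factors in each library, with early libraries in blue, late libraries in orange, a line at the mean of the stage (n = 5) and the library number above each point. The late points of *EGR2* and *FOSB* all lie above the early points, whereas those of *FOS* cover much the same range in both stages.

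The EGR zinc finger factors held the largest difference. *EGR2*, which in T cells is induced through the antigen receptor and restrains their activation, and which is also used by myeloid cells, had normalized read counts of 42.8, 64.2, 60.6, 87.4 and 42.9 in the early libraries. In the late libraries it had 241, 295, 213, 383 and 585. Every late value was more than the highest early value by a wide margin, and the early values lay close together. The mean was 59.6 ± 18.4 in early and 344 ± 150.1 in late CCH (SD, n = 5 each), 5.76 times as high. The log2FC was 2.46 (SE 0.29, 95% interval 1.83 to 3.09), with an adjusted p of 0.00812 in limma. Leaving out any 1 library gave 10 fits, and *EGR2* was called in all 10, with a log2FC between 2.24 and 2.61 and an adjusted p between 0.0097 and 0.0343. Its size placed it at the 98.3 percentile of all genes tested.

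*EGR1*, the most widely expressed EGR factor and a classic early target of ERK signaling, had 91.4, 138, 36.2, 19.7 and 44.0 in the early libraries and 118, 367, 167, 141 and 512 in the late ones. In 4 of 5 late libraries it lay above every early library, and late library 1 fell between the highest early values. The mean was 65.8 ± 48.2 in early and 261 ± 172 in late CCH (SD, n = 5 each). The log2FC of 2.05 (SE 0.53) was nearly as large as that of *EGR2*, but the spread was wider and *EGR1* was not called (adjusted p = 0.221 in limma). BH adjustment gave 0.0221 and DESeq2 on the recovered reads gave 0.0178, so that *EGR1* counted as called under either of these, while the adjusted p lay between 0.0953 and 0.561 in limma with a library left out. Taken alone, the gene had an unadjusted exact two-sided permutation p of 0.0159.

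*EGR3*, which acts beside EGR2 in T cells and in muscle spindles, was far lower, with 19.0, 14.9, 5.43, 21.3 and 22.5 in early and 36.8, 27.6, 28.1, 10.2 and 51.4 in late CCH. Late library 4 was below 4 of the 5 early libraries, and the other late libraries were above all of them. The log2FC was 0.82 (SE 0.49) and the gene was not called (adjusted p = 1 in limma). Without early library 3 the log2FC was 0.49. No early library held over 27 reads of *EGR3*, and late library 4 held 10, so that its values rest on few reads.

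*FOSB*, an AP-1 subunit that is strongly induced by repeated stimulation, was the lowest of the 10 genes. It had 7.62, 4.65, 2.71, 4.73 and 2.15 in the early libraries and 15.9, 26.6, 11.6, 8.18 and 49.3 in the late ones. All late values were above all early values, although late library 4 and early library 1 were almost level. The mean was 4.37 ± 2.15 in early and 22.3 ± 16.6 in late CCH (SD, n = 5 each), 5.11 times as high, which rests on 24 reads over the early and 111 over the late libraries. The difference of 1.94 on the log2(value + 1) scale had an exact two-sided permutation p of 0.00794, the smallest that the 252 assignments of 5 and 5 libraries can give. It was between 1.60 and 2.21 with a library left out (exact p at most 0.0159). *FOSB* was too low for the filter, and in a fit without one its adjusted p was 0.715 in limma.

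*FOS*, the founding AP-1 subunit, showed no difference that could be told from its spread. The early libraries held 412, 389.8, 119, 41.7 and 383, and the late libraries 38.8, 597, 219, 217 and 349. Each stage had both low and high libraries, with a 9.87-fold range in early and a 15.4-fold range in late CCH. The mean was 269 ± 175 in early and 284 ± 207 in late CCH (SD, n = 5 each), and the log2FC of 0.07 had an SE of 0.75 (95% interval -1.55 to 1.69, adjusted p = 1 in limma). Of all genes tested, 94.5% had a smaller SE, so that a change of 2-fold in either direction was within the interval. Without early library 3 or 4, or late library 2 or 5, the log2FC of *FOS* was below 0 (-0.12, -0.49, -0.31 and -0.12).

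**Figure D2:**
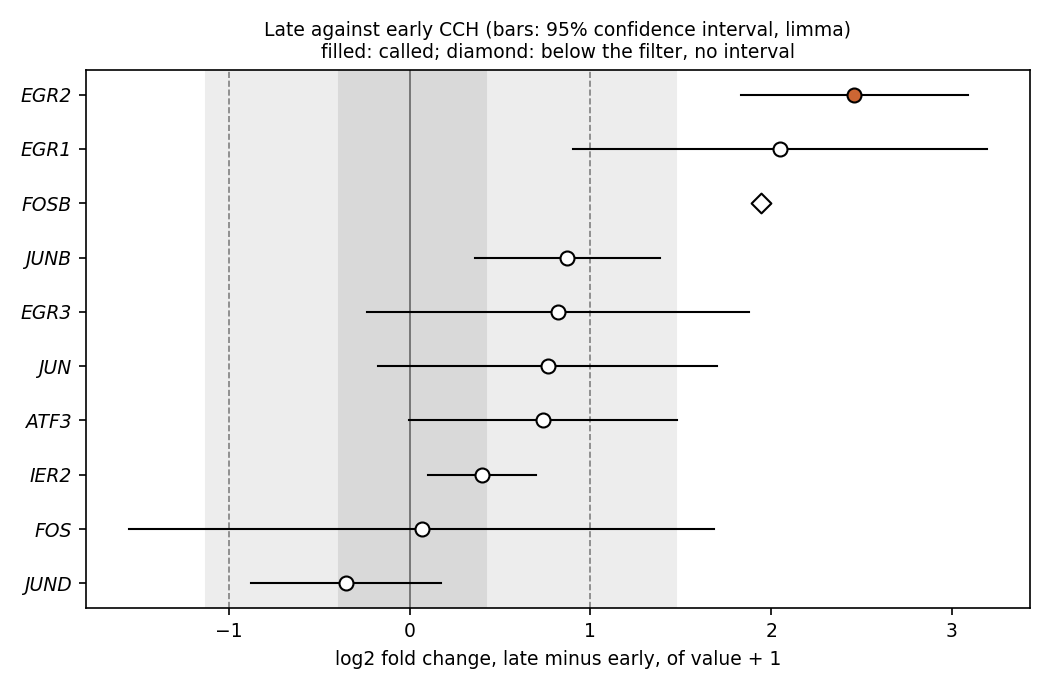
Log2 fold change, late minus early, of value + 1 for the 10 genes, with 95% confidence intervals from limma (n = 5 each). The orange point (*EGR2*) is called, the diamond (*FOSB*) is below the filter and has no interval, grey bands hold the 25th to 75th (-0.39 to 0.42) and the 5th to 95th percentile of all genes tested (-1.12 to 1.47), and dashed lines mark the fold limit of 1, which the interval of *EGR2* alone exceeds entirely.

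The Jun subunits of AP-1 differed from each other. *JUNB*, which often restrains JUN-driven transcription and is abundant in the immune system, had 635, 1132, 517, 449.7 and 552 in early and 1163, 1265, 1061, 838 and 1447 in late CCH. Early library 2 lay within the late values, and the other early libraries lay below all of them. The mean was 657 ± 274 in early and 1155 ± 227 in late CCH (SD, n = 5 each), and the log2FC of 0.87 (SE 0.24) was not called (adjusted p = 0.272 in limma, 0.0272 with BH). Without early library 2 the log2FC was 1.09 and the gene was called (adjusted p = 0.0336 in limma).

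*JUN*, the strongest activator of the family, had 374, 889, 204, 211 and 273 in early and 597, 729, 230.5, 558 and 997 in late CCH. Early library 2 was among the highest of all libraries, and late library 3 among the lowest, so that the stages overlapped. The log2FC was 0.76 (SE 0.43, 95% interval -0.17 to 1.70) with an adjusted p of 1 in limma.

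*JUND*, which is expressed constitutively in many tissues and reacts little to stimulation, had 981, 1157, 1289, 1577 and 2049 in early and 1287, 1035, 1094, 646 and 1481 in late CCH. It was the single gene of the 9 tested with a log2FC below 0 (-0.35, SE 0.24), and the stages overlapped (adjusted p = 1 in limma). The log2FC was -0.21 without early library 5 and -0.17 without late library 4.

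*ATF3*, a stress-induced factor that pairs with Jun proteins, had 15.2, 37.2, 19.0, 19.7 and 31.1 in early and 31.8, 37.1, 39.7, 28.6 and 69.2 in late CCH. Late library 5 stood above the others, and the remaining late values lay within or just above the early range. The log2FC was 0.74 (SE 0.34, adjusted p = 1 in limma). *IER2*, a nuclear regulator of transcription that is induced together with *FOS*, had 383, 407, 346, 451 and 421 in early and 431, 534, 632, 522 and 539 in late CCH. It had the smallest spread of the 10 genes, with a 1.30-fold range in early and a 1.47-fold range in late CCH. Only late library 1 fell within the early range. The mean was 402 ± 39.6 in early and 531 ± 71.7 in late CCH (SD, n = 5 each), and the log2FC of 0.40 (SE 0.14) was not called (adjusted p = 0.679 in limma, unadjusted exact permutation p = 0.0159).

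In the order of mean levels, early CCH had *JUND* first (1411 ± 418), followed by *JUNB*, *IER2*, *JUN*, *FOS*, *EGR1*, *EGR2*, *ATF3*, *EGR3* and *FOSB* (SD, n = 5). *JUND* was above *JUNB* in 5 of 5 early libraries, and *FOS* was above *EGR1* in 5 of 5. The neighbors *JUN* and *FOS*, *EGR1* and *EGR2*, and *ATF3* and *EGR3* kept their order in only 3 of 5 early libraries each, and so did not separate beyond their spread. In late CCH the order of means was *JUNB*, *JUND*, *JUN*, *IER2*, *EGR2*, *FOS*, *EGR1*, *ATF3*, *EGR3* and *FOSB*. There *JUNB* was above *JUND* in 2 of 5 libraries, although its mean was slightly higher, and *EGR2* was above *FOS* in 3 of 5. *FOSB* stayed last in all 10 libraries. *JUND* and *JUNB* were at the 97.4 and 96.1 percentile of the mean level of all genes tested.

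The make-up of each family was then taken as the share of its reads within a library, which does not depend on the scaling of the libraries. This comparison was added after the values had been seen, and covered 10 shares in the Jun, Fos and Egr families, with *FOSL1* and *FOSL2* completing the Fos family. The share of *JUNB* in Jun family reads was 31.9%, 35.6%, 25.7%, 20.1% and 19.2% in the early libraries and 38.2%, 41.8%, 44.5%, 41.0% and 36.9% in the late ones. The stages did not overlap, with means of 26.5% ± 7.2 and 40.5% ± 3.01 (SD, n = 5 each, exact two-sided permutation p = 0.00794, BH-adjusted 0.0397). With a library left out the difference lay between 12.1 and 16.2 percentage points. *JUND* took 58.3% ± 15.1 of Jun family reads in early and 38.3% ± 5.8 in late CCH (SD, n = 5 each), which did not pass the adjustment (exact permutation p = 0.0397, BH-adjusted 0.0992). The share of *JUN* was 15.2% ± 8.17 and 21.2% ± 7.06 (SD, n = 5 each, exact permutation p = 0.262). The Jun family had 1998 to 3741 reads per library.

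In the Fos family, the share of *FOSB* ranged from 0.256% to 1.43% in early and from 1.73% to 6.3% in late CCH, again without overlap (means 0.731% ± 0.459 and 3.53% ± 1.79, SD, n = 5 each, exact permutation p = 0.00794, BH-adjusted 0.0397). *FOSL1* (Fra-1), an AP-1 subunit that ERK signaling stabilizes, took 3.62% to 21.4% in early and 0% to 4.51% in late CCH, which overlapped in 1 late library and did not pass the adjustment (exact permutation p = 0.0159, BH-adjusted 0.0529). Late library 5, the one without a read of *FOSL1*, had 746 Fos family reads, which allows a share of up to 0.402%. *FOSL2* (Fra-2) held the largest mean share in both stages, 55.8% ± 7.86 and 52.1% ± 17.7 (SD, n = 5 each). The share of *FOS* was nonetheless larger in early library 1 and in late libraries 2 and 3, and late library 1 had 80.9% *FOSL2*. Among the EGR genes no share passed the test, and the share of *EGR2* was 44.8% ± 18.0 and 55.7% ± 11.0 (SD, n = 5 each, exact permutation p = 0.294). The Egr family rested on 102 to 1095 reads per library.

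**Figure D3:**
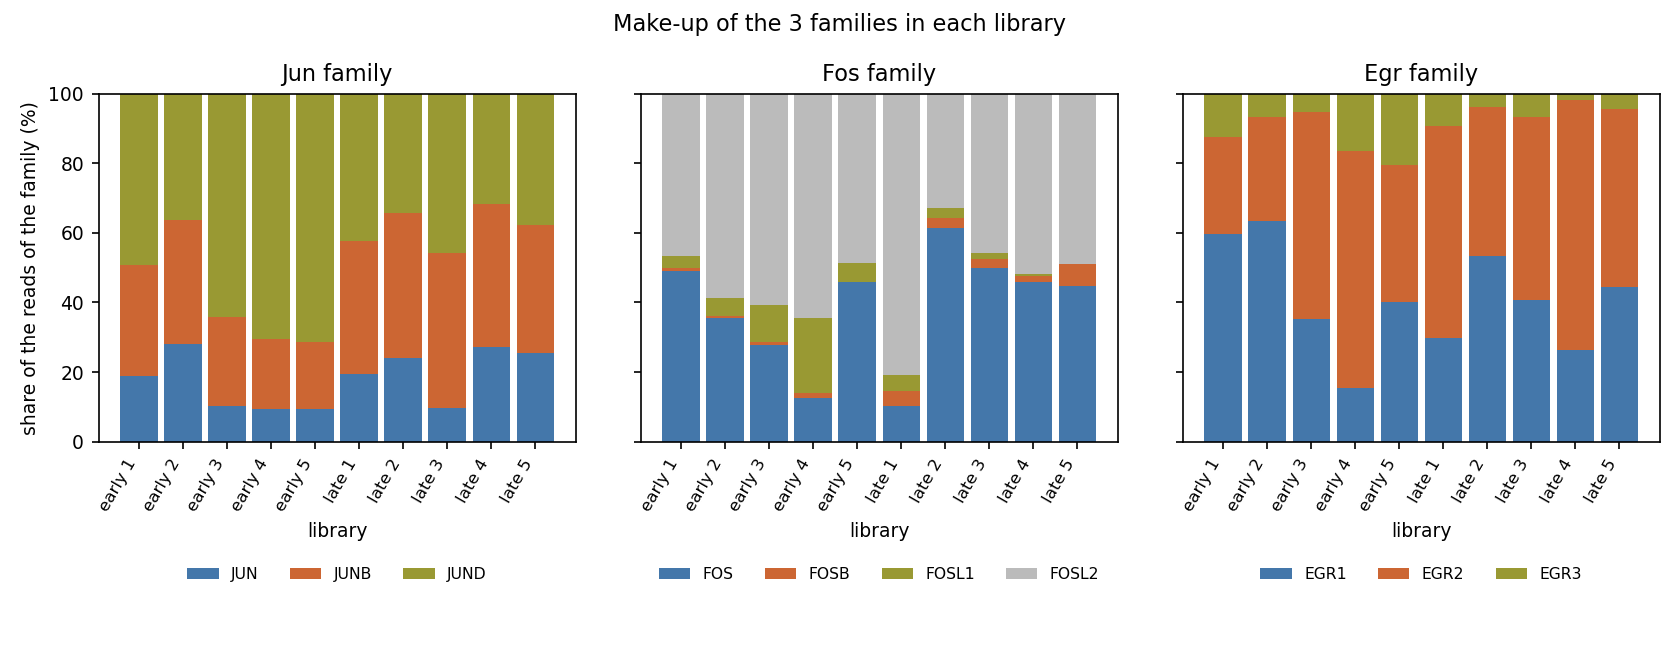
Share of each gene in the reads of its family (%), as stacked bars that sum to 100 in each of the 10 libraries. In the Jun family the middle segment (*JUNB*) is at least 36.9% in every late library and at most 35.6% in every early library, while the segments of *FOS* and *EGR1* vary widely within both stages.

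When each library was expressed as its difference from the mean of its own stage, late library 5 was above the mean for 10 of 10 genes and was the highest late library for 8 of 10, all but *FOS* and *IER2*. This held for 8 genes with scaling by column totals too. Of all genes tested, 20.4% were highest in that library among the late libraries. Without late library 5, the log2FC of *EGR2* was 2.24 (adjusted p = 0.0145 in limma), and those of *EGR1* and *FOSB* were 1.75 and 1.60. Late library 4 was the lowest late library for 5 of 10 genes. Among the early libraries, library 2 was the highest for 4 genes and above the stage mean for 8, and library 3 was above it for 1. Of 10 marker lists of cell types, 5 had their highest early sum in early library 2, namely macrophage (8133), fibroblast (60438), neutrophil (7495), B-cell (203) and endothelial markers (836). Late library 5 had the highest late sum for 0 of the lists and the lowest for 3, namely fibroblast (10533), endothelial (545) and smooth muscle markers (541). Late libraries 2 and 5, which led the late libraries for *FOSB*, *FOS*, *JUN*, *JUNB* and *EGR1*, were also those with the highest late sums of keratinocyte (8057 and 6263) and neutrophil markers (7101 and 1214). The highest early keratinocyte sum (15956) was in library 4, the lowest early library for *FOS*, *JUNB* and *EGR1*. With stage means removed, the Pearson correlation of the log2 keratinocyte sum was 0.11 with *FOS* and *JUNB*. It was 0.33 with *EGR1*, 0.35 with *JUN*, 0.56 with *EGR2* and 0.76 with *FOSB*. For the log2 neutrophil sum it was 0.35 with *FOS* and *EGR2*, 0.47 with *JUNB*, 0.56 with *EGR1*, 0.64 with *FOSB* and 0.71 with *JUN*. The part of cell content in this pattern was not tested.

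**Figure D4:**
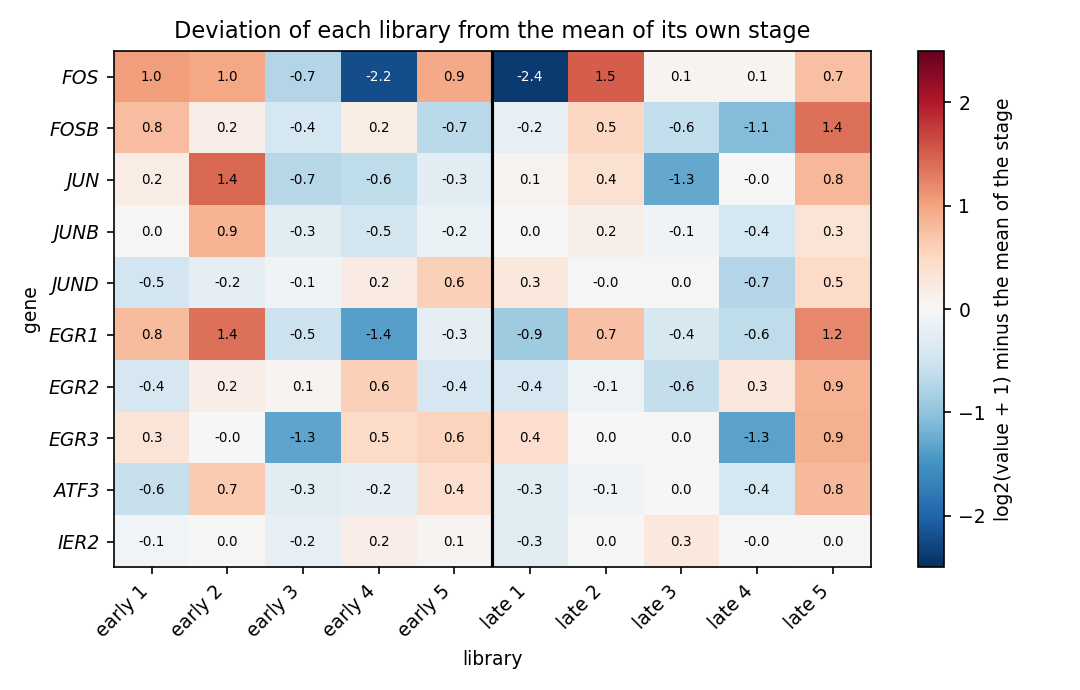
Difference of log2(value + 1) of each gene (rows) in each library (columns) from the mean of its stage, with red above and blue below the mean. Late library 5 is above the mean for all 10 genes, and *FOS* has the widest range, from -2.4 in late library 1 to 1.5 in late library 2.

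Across the 10 libraries, with stage means removed, 38 of the 45 pairs of these genes had a positive Pearson correlation, with a median of 0.32 and a range of -0.26 to 0.84. Over all pairs of the genes tested, 49.8% were positive, with a median of -0.0022. These values are a description, since pairs that share a gene are not independent. *JUNB* and *EGR1* had the highest Pearson correlation (r = 0.84, permutation p = 0.00215, BH-adjusted 0.0969, Spearman's rho = 0.78, permutation p = 0.0139), and r was 0.76 without the 2 libraries farthest from the median of *JUNB*. *FOS* and *EGR1* had r = 0.80 (permutation p = 0.0084, BH-adjusted 0.189) and rho = 0.83 (permutation p = 0.0066), and r was 0.70 without such libraries. *JUN* and *JUNB* had r = 0.81 (permutation p = 0.0197, BH-adjusted 0.222) and rho = 0.81 (permutation p = 0.0104). The highest rho was that of *JUND* and *EGR3* (0.84, permutation p = 0.00813), with r = 0.68. After BH adjustment over the 45 pairs, 0 pairs passed with either coefficient. The libraries share the processing and the depth differences given above.

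The genes whose stage-centered values were most like those of a given factor were searched among 11109 genes over the 10 libraries, as a description. *KLF4*, a zinc finger factor that is itself an immediate early gene, was the most like *EGR1* (r = 0.98, rho = 0.99), followed by *BST1* (0.94) and *DNAJB9* (0.93). *CROT* (r = 0.96), *TIPARP* (0.95) and *TM9SF4* (0.92) were the most like *FOS*. *SLC43A3* (0.98), *NDRG4* (0.97) and *PTGES* (0.96) were the most like *JUN*. *KLF4* had 161, 174, 64.2, 47.3 and 92.3 in the early libraries and 27.8, 70.4, 42.6, 30.7 and 90.2 in the late ones, with means of 108 ± 57.0 and 52.4 ± 27.0 (SD, n = 5 each, adjusted p = 1 in limma). It followed *EGR1* from library to library, but on another level in each stage. The ratio of *EGR1* to *KLF4* was 0.417 to 0.791 in the early libraries and 3.91 to 5.67 in the late ones, a description of a pair found by the search.

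Genes of the same pathway were looked up in 4 lists. Of the EGR partner genes, *EGR4* was almost without reads, and both corepressors were tested. *NAB1*, which binds EGR1 and EGR2 and represses their targets, rose in late CCH, with 122, 186, 206, 170.1 and 152 in early and 453, 521, 272, 386 and 401 in late libraries. All late values were above all early ones. The mean was 167 ± 32.3 in early and 407 ± 92.1 in late CCH (SD, n = 5 each), with a log2FC of 1.27 (SE 0.20) and an adjusted p of 0.0276 in limma. It was called in 4 of the 10 fits with a library left out. Without early library 1 or 5, or late library 1, 2, 4 or 5, its log2FC was still at least 1.16, but its adjusted p lay between 0.0698 and 0.0969 in limma. *NAB2*, itself an EGR target, had a log2FC of 0.98 (SE 0.34) and was not called (adjusted p = 0.696 in limma).

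Of 26 other immediate early genes, 25 were tested, and 1 was called, *IER5*, which was lower in late CCH. The median log2FC of this list was 0.58, with 19 genes above and 6 below 0. An unadjusted p of at most 0.05 was reached by 12 of the 25, 9 higher and 3 lower in late CCH, beside 30.9% of all genes tested. With BH adjustment, 4 were called higher (*NR4A2*, *NR4A3*, *DUSP2* and *SIK1*) and 1 lower (*IER5*), beside 9.04% of all genes tested. *IER5*, a regulator of the heat shock factor HSF1, had 812, 662, 605, 763 and 729 in early and 355, 343, 491, 272 and 344 in late libraries. It fell by 1.00 on the log2 scale (SE 0.16), with an adjusted p of 0.033 in limma, and was called in 3 of the 10 fits with a library left out. The call was lost without early library 1, 4 or 5, or late library 1, 2, 4 or 5 (adjusted p 0.0596 to 0.11 in limma). Its size lay at the fold limit, and it was below the limit, and so not called, with a pseudocount of 5 (-0.99), with scaling by column totals (-0.91), in edgeR (-0.97) and in DESeq2 (-0.98). The highest log2FC was that of *DUSP2*, a nuclear phosphatase of ERK known from activated lymphocytes, with 18.1, 84.7, 174, 72.5 and 11.8 in early and 559, 317, 573, 317 and 238 in late libraries. These did not overlap, and the log2FC of 2.96 (SE 0.61) missed the threshold (adjusted p = 0.0835 in limma), which it passed without early library 3 (log2FC 3.43, adjusted p = 0.0325). The lowest was that of *MYC*, a growth factor-induced regulator of cell growth, with -1.12 (SE 0.42, adjusted p = 0.913 in limma).

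Of 15 further leucine zipper factors, 14 were tested, with a median log2FC of -0.20. Of these, 0 were called by limma or edgeR and 1 by DESeq2 (*BATF2*), which called 810 of the 12397 genes tested. An unadjusted p of at most 0.05 was reached by 7 of them, 2 higher and 5 lower in late CCH, beside 30.9% of all genes tested. BH adjustment called 3 (*BATF2* higher, *FOSL1* and *BATF3* lower), beside 9.04% of all genes tested. *BATF2*, an interferon-induced factor, had the highest log2FC (1.40, SE 0.32, adjusted p = 0.133 in limma). *FOSL1* had the lowest, with 30.5, 55.8, 45.2, 70.9 and 45.1 in early and 16.9, 29.5, 7.75, 3.07 and 0 in late libraries (log2FC -2.76, SE 0.77, adjusted p = 0.304 in limma). Its stages did not overlap, although early library 1 and late library 2 were almost level.

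Of 24 upstream kinases and transcription factors, all tested, 12 had a log2FC above and 12 below 0, with a median of -0.03. *MAP2K1* (MEK1), a kinase that activates ERK, was the only one called. It had 341, 408, 346, 305 and 389 in early and 116, 171, 146, 173 and 206 in late libraries, without overlap, and fell by 1.15 on the log2 scale (SE 0.17, adjusted p = 0.0219 in limma). It was called in 6 of the 10 fits with a library left out, and the call was lost without early library 1 or 5, or late library 2 or 4 (adjusted p 0.0589 to 0.0827 in limma). *MAP2K2* (MEK2), in the same list, was not called, with a log2FC of 0.22 (SE 0.16). Its means were 258 ± 33.6 in early and 302 ± 51.9 in late CCH (SD, n = 5 each). *BRAF*, a kinase above MEK1 in the same cascade, had the highest log2FC (0.55, SE 0.33, adjusted p = 1 in limma). Over the 4 lists, 3 of 65 genes tested were called, beside 2.17% of all genes tested.

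**Figure D5:**
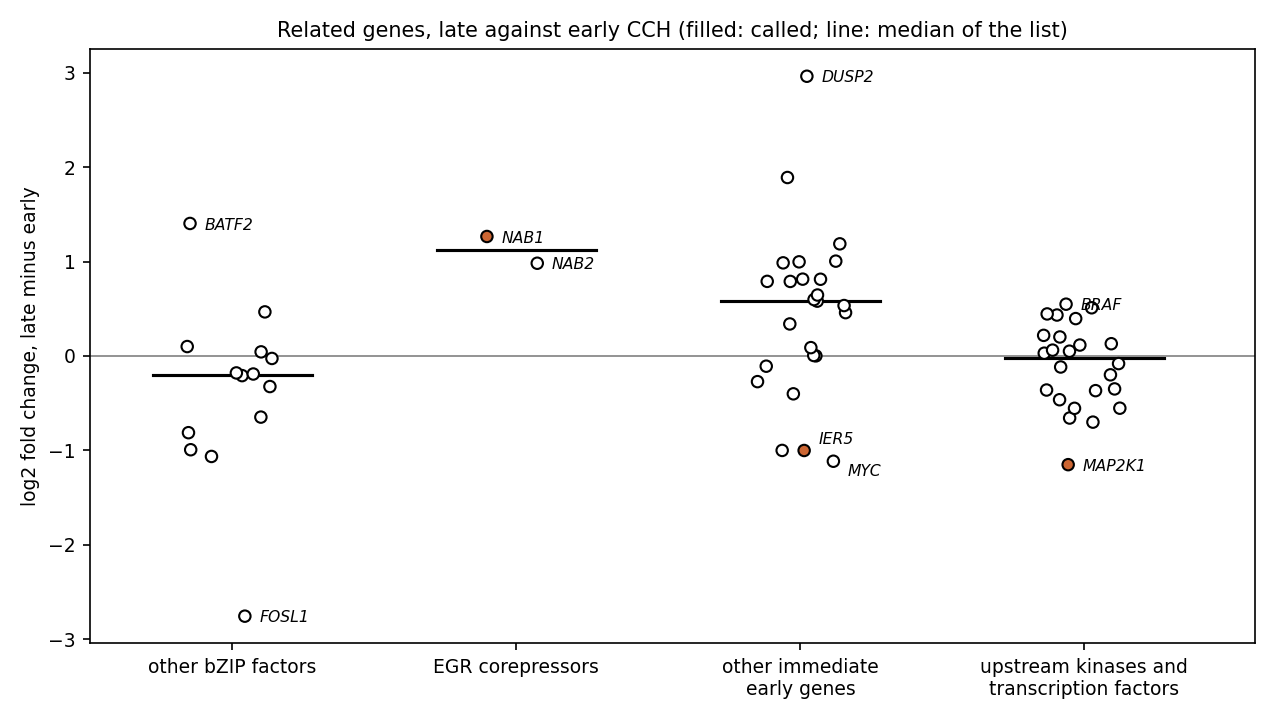
Log2 fold change, late minus early, of the tested genes of 4 related lists (n = 5 libraries per stage), with called genes in orange and a line at the median of each list. *NAB1* is called above 0, *IER5* and *MAP2K1* are called below 0, and the medians range from -0.20 to 1.12.

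The sums of T-cell and B-cell markers did not overlap between the stages. The 6 T-cell markers summed to 51.4 to 1842 in early and 3001 to 4577 in late libraries. All 6 had a log2FC above 0 and an unadjusted p of at most 0.05, which 30.9% of all genes tested reached in either direction. Of the 6, 0 were called by limma or edgeR. DESeq2 called 2 (*CD2* and *CD5*), beside 810 of the 12397 genes tested. With BH adjustment 6 were called, beside 9.04% of all genes tested. *CD5* was at 0 in early library 1. In early libraries 1 to 5 the T-cell sum was 51.4, 556, 1842, 1271 and 195, and in the late ones 4167, 3302, 3001, 4577 and 3870.4. *EGR2* was lowest in early libraries 1 and 5, which also had the lowest T-cell sums. Among the early libraries *EGR2* was highest in library 4, whereas the T-cell sum was highest in library 3. Among the late libraries *EGR2* was highest in library 5 and the T-cell sum in library 4, while both were lowest in library 3. With stage means removed, the Pearson correlation of *EGR2* was 0.52 with the log2 T-cell sum and 0.56 with the log2 keratinocyte sum. The 5 B-cell markers summed to 47.2 to 203 in early and 386 to 2247 in late libraries, with *MS4A1*, *CD79B* or *PAX5* at 0 in some of them. All 5 had a log2FC above 0 and an unadjusted p of at most 0.05, and 0 were called by limma or edgeR, 3 by DESeq2 and 3 with BH adjustment, beside the same shares of all genes tested. Of the 7 Langerhans cell markers all had a log2FC below 0 and 2 were called lower, *FLT3* and *FCER1A*, beside 2.17% of all genes tested called in either direction. With a library left out, *FLT3* was called in 3 of 10 fits (without early library 2 or 4 or late library 3, adjusted p 0.0247 to 0.135 over all 10 in limma) and *FCER1A* in 1 of 10 (without early library 1, adjusted p 0.0442 to 0.111). The sums of keratinocyte markers (808 to 15956 in early, 636 to 8057 in late), fibroblast markers (7615 to 60438 and 10533 to 35601) and endothelial markers (497 to 836 and 545 to 1121) overlapped between the stages. The same held for macrophage markers (2140.0 to 8133 and 4235 to 8339), smooth muscle markers (478 to 739 and 541 to 1259), mast cell markers (39.7 to 150.4 and 28.6 to 78.4) and neutrophil markers (121 to 7495 and 68.8 to 7101). The part of the change in cell types in the values of *EGR2*, *EGR1*, *FOSB*, *NAB1* and *DUSP2* was not tested.

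All 10 genes were found in the RefSeq gene table of the dog assembly UU_Cfam_GSD_1.0, used here only for gene order. The genes directly beside *EGR2*, *ADO* and *NRBF2*, had a log2FC of -0.08 and -0.15 and were not called (adjusted p = 1 in limma for both).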

How the data were processed

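QuantSeq 3′ was measured in 10 FFPE tumors, 5 per stage, which were grouped by the GEO labels. According to the methods and the submitters' processing notes, the authors trimmed reads with Cutadapt, aligned them with STAR to CanFam3.1 and counted them per gene with featureCounts in a pair of rounds, the second on genes lengthened at their downstream end. Reads with several places were divided evenly among them, and tool versions are not given in the sources used here. The deposited table holds a normalized signal, that is, read counts that the authors divided by 1 size factor per library. In the columns used, 100% of the 166096 values above 0 gave whole reads (tolerance 0.001 reads). Reads divided among several places can give fractions, and the methods do not state how the counts became whole. Of 21 value columns, 11 match no sample and were not used. Depth was 2973125 to 4439709 reads per library. Intervals and limits for shares cover counting error only, since PCR copies cannot be told from separate molecules here, and a count of 0 was taken to allow 3 reads.

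The main test was limma 3.58.1 (R 4.3.3) on log2(value + 1), with the prior variance following the mean and without covariates. This scale understates changes of low genes. Genes had to reach 10 in at least 5 libraries, and p-values were BY-adjusted over all 12397 genes tested. edgeR 4.0.16 (quasi-likelihood) and DESeq2 1.42.0 were run on the recovered reads. Other alternatives were pseudocounts of 0.5 and 5, other filters, scalings (TMM, RLE, column totals), BH adjustment, robust moderation, library weights and leaving out each library. The fits were tested on simulated data. For single values an exact permutation test, two-sided, was run over the libraries. The genes and lists described were chosen with earlier results of these data known. All 10 factors were named, and of each related list every called gene and the genes with the highest and lowest log2FC, as well as the 3 non-LOC genes most like *FOS*, *JUN* and *EGR1*. Names given beyond this rule (*BATF3*, *ADO*, *NRBF2*, *EGR4*, *NR4A2*, *NR4A3*, *SIK1*, *MAP2K2*) were chosen after their values were seen. No sequences were analysed here.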

Additional observations from a re-analysis of the deposited data

How the results depend on the processing

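*EGR2* was called under each alternative tried. Against 1 factor called, BH adjustment and DESeq2 called 2 (*EGR1* and *EGR2*), and leaving out a library called 1 to 2, with *JUNB* added without early library 2. *FOSB*, below the filter, had 1.94 without a filter (adjusted p = 0.715 in limma), against an exact permutation p of 0.00794 alone. *FOS* changed direction without early library 3 (-0.12), early library 4 (-0.49), late library 2 (-0.31) or late library 5 (-0.12), and reached 0.67 without late library 1. The other tested factors kept their direction under every alternative. Of the related genes, 3 were called, against 10 with BH, 5 with DESeq2, 2 with a pseudocount of 5, column totals or edgeR (*IER5* lost each time) and 0 to 4 with a library left out. Over all genes, the calls (269, with 131 higher and 138 lower in late CCH) numbered 1121 with BH (685 and 436), 418 with weights per library (217 higher), 177 with edgeR (81 higher), 810 with DESeq2 (480 and 330) and 49 to 260 with a library left out (18 to 144 higher, 29 to 153 lower), being at most 113 without early library 1 or 5 or late library 1, 2, 4 or 5. Scaling by column totals gave 169 higher and 95 lower, 64.0% higher against 48.7%, and shifted the median log2FC by 0.09. The cause of these differences was not tested. No paired analysis was possible because replicate numbers are missing from the columns and nothing in the labels pairs an early with a late tumor. Depth limits *FOSB* and *EGR3*, with 2 to 47 and 6 to 49 reads per library.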
